A study of Mikania micrantha with 15 samples.

Results

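In Mikania micrantha, a vine of the daisy family known for its rapid growth, 96 genes were both abundant and close to level across the 5 organs sampled. They were chosen by their organ means, in CPM. A CPM is 1 read in 1000000 reads of a library, here with totals scaled by TMM (trimmed mean of M-values). Each of the 5 organ means had to reach 50 CPM, and the highest could be at most 1.3 times the lowest. Of 41487 gene IDs in the table, 27055 had enough reads to be tested, 2814 reached 50 CPM in every organ, and the 96 were 3.41% of these. All 96 passed the filter on low counts. The organ means thus define these genes, and their evenness over the 15 libraries used is a description of the choice and not a finding.

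The organs were root, stem, leaf, flower and shoot apex (the tip from which the shoot grows), each with 3 RNA-seq libraries numbered as replicates 1 to 3. All came from wild-type vines without a treatment: branches were rooted in water under low light until roots were 4 to 5 cm long, then grown in Hoagland nutrient solution for 60 days, at 24 °C with the lights on for 16 h a day and off for 8 h. The labels name no plant for a replicate, so the spread between libraries may be partly technical. Gene IDs are locus tags that the table does not pair with gene names, so no gene is named here, and neither the organs nor the genes were checked against known markers.

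Genes of this kind are sought as reference genes. In quantitative PCR the transcript of interest is read against one or a few transcripts whose level is taken to be the same in every sample, and any change in the reference passes into the result. Genes for actin, tubulin, elongation factor 1-alpha, ubiquitin, glyceraldehyde-3-phosphate dehydrogenase and subunits of protein phosphatase 2A are commonly used in plants for this purpose. An RNA-seq survey of organs lets candidates be ranked by level and spread without such prior choices. Each organ is a mixture of cell types, so in these bulk libraries fewer cells that express a gene and less RNA per cell cannot be told apart, and an even level can hold opposite changes of both.

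The even genes were of moderate abundance. Their mean over organs ran from 52.5 to 299 CPM, with a median of 80.1, and 33 of them were at 100 CPM or more. CPM is not divided by gene length, so this order is one of reads and not of transcripts. Evenness was rare at every level at which it could be compared. Of all tested genes, 36 of 2129 with a mean of 65 to 100 CPM were even, which is 1.69%. The share was 1.67% at 100 to 200 CPM, with 29 of 1736 genes, and 1.25% at 200 to 300 CPM, with 4 of 319. None of the 206 genes at 300 CPM or more was even. The nearest of these, E3N88_11462, was at 312 CPM with a ratio of highest to lowest organ mean of 1.39, and was named after its values were seen. The other 27 even genes had means under 65 CPM, where the limit of 50 CPM in every organ itself holds the ratio down.

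**Figure D1:**
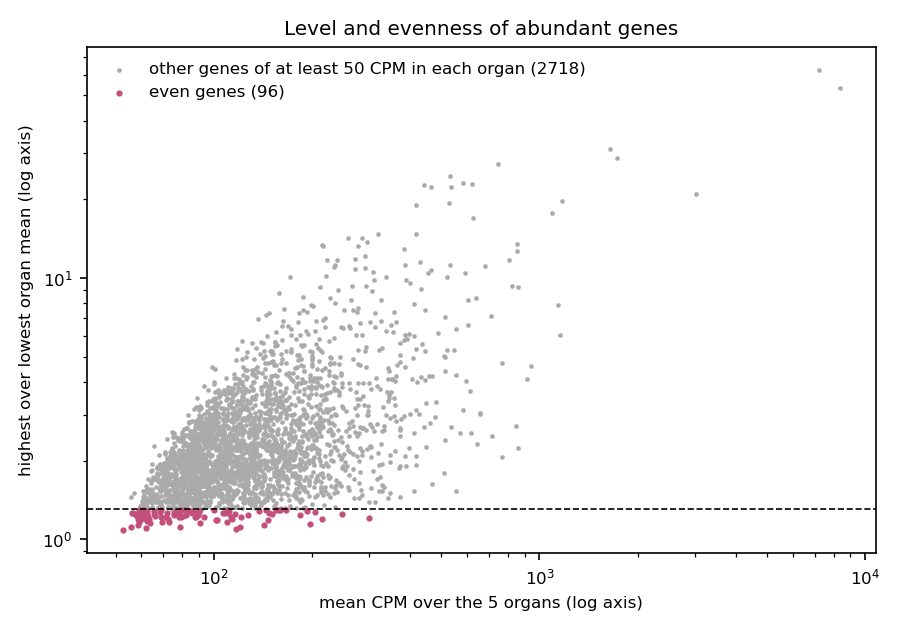
Each point is 1 of the 2814 genes with at least 50 CPM in every organ, with its mean CPM over organs on a log axis and the ratio of its highest to its lowest organ mean on a log axis. The 96 even genes lie under the dashed line at 1.3 and end at 299 CPM, while the grey genes reach 8372 CPM.

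The limit of 1.3 cut through a dense field of genes. Over the 96 genes the ratio had a median of 1.24 and a lowest value of 1.08. The 2 genes just inside the limit were E3N88_02170 at 1.29979 and E3N88_17365 at 1.29823, and the 2 just outside were E3N88_21605 at 1.30086 and E3N88_38713 at 1.30119. At the limit of level, E3N88_36034 and E3N88_36471 lay just inside with lowest organ means of 50.3074 and 50.3169 CPM. E3N88_13274 at 49.9922 and E3N88_28666 at 49.7901 lay just outside. Genes on the 2 sides of either limit differed by far less than the spread between replicates.

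What difference was left between organs was spread over all 5 of them under TMM scaling. Root had the highest organ mean for 22 of the 96, shoot apex for 21, stem for 19, leaf for 18 and flower for 16. Leaf had the lowest for 30, flower for 20, stem for 19, shoot apex for 17 and root for 10. The limit on the ratio and the TMM scaling enter these counts, which are a description; plain library totals give another order, stated with the scaling. The IDs were scattered as well: they ran from number 1994 to number 41133, no member followed another in number, and the closest pair was 11 apart.

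The 5 genes with the highest level were at 198 to 299 CPM and differed among themselves in how steady they were. E3N88_37524 was at 249, 300.4 and 293 CPM in root replicates 1 to 3, 322, 359 and 284 in stem, 225, 380.3 and 287 in leaf, 279.8, 249.7 and 279.6 in flower, and 308, 334 and 333 in shoot apex. Its lowest and its highest library were thus both leaf libraries, and the leaf range held that of every other organ. E3N88_03535 was steadier, at 261, 265 and 289 CPM in root, 242, 245 and 231 in stem, 229.5, 239 and 266 in leaf, 205, 215 and 229.7 in flower, and 259, 261 and 281 in shoot apex. Its flower libraries all lay below its root, shoot apex and stem libraries and touched only those of leaf. The edgeR and DESeq2 tests given below, which differ in scaling as well, disagreed on whether its organs differ.

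The other 3 varied most in root or leaf. E3N88_24782 was at 199 to 209 CPM in flower, 194 to 199.7 in leaf, 196 to 239 in stem and 210.1 to 221 in shoot apex, but at 170.5, 276 and 259.8 in root replicates 1, 2 and 3. E3N88_27869 was likewise at 157 CPM in root replicate 1, against 245 and 228 in replicates 2 and 3. Root replicate 1 was the lowest of the 15 libraries for both genes and root replicate 2 the highest. E3N88_26784 had a mean of 188 ± 21.0 CPM in root (SD, n = 3), 199 ± 3.71 in stem, 185 ± 27.5 in leaf, 204 ± 5.36 in flower and 212 ± 6.31 in shoot apex, and its lowest and highest libraries differed 1.37-fold.

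Among the 96, the 5 genes with the lowest spread over the 15 libraries were all near the lower limit of level. Spread was measured as the SD of log2 CPM, computed with a prior count of 2. The rule did not collect all steady genes. Of the 10 tested genes with the lowest SD, 5 were among the 96, and of the 100 lowest, 48 were. E3N88_15233 had the lowest SD, 0.0911, of all 27055 genes tested. It was at 61.2, 56.2 and 62.9 CPM in root, 61.9, 60.5 and 68.8 in stem, 61.9, 65.3 and 65.9 in leaf, 57.7, 69.1 and 61.7 in flower, and 56.8, 59.9 and 58.7 in shoot apex. The shoot apex libraries lay just below those of stem and leaf, all other pairs of organs overlapped, and the highest library was 1.23 times the lowest. At this level the depth matters: the gene had 170 reads in root replicate 2 and 906 in shoot apex replicate 2.

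E3N88_34299, with an SD of 0.113, had the tightest replicates of the 96, with a coefficient of variation (CV, SD over mean) within organs of 3.81%. It was at 58.7, 59.2 and 56.5 CPM in root, 51.0, 49.9 and 57.0 in stem, 58.2, 59.4 and 59.8 in leaf, 63.7, 63.9 and 67.3 in flower, and 56.0, 57.0 and 55.4 in shoot apex. Its flower libraries lay above all 12 others, although flower was only 1.23 times stem. A gene can therefore be among the steadiest over all libraries and still have the libraries of 1 organ apart from the rest. Whether its organs differ was not settled: the adjusted p was 0.249 in edgeR's F test and 0.00263 in DESeq2's likelihood ratio test. Its tight replicates, the tightest of the 96, also make a small gap stand out. E3N88_17292 had an SD of 0.116 and ran from 52.9 CPM in root replicate 2 to 69.2 in flower replicate 3. E3N88_20588, with an SD of 0.126, ran from 49.0 CPM in shoot apex replicate 2 to 67.3 in stem replicate 3.

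E3N88_36034, with an SD of 0.125, had the most level organ means of all 96. They were 50.3 ± 8.55 CPM in root (SD, n = 3), 52.0 ± 2.92 in stem, 52.6 ± 5.33 in leaf, 53.4 ± 1.55 in flower and 54.4 ± 1.02 in shoot apex, a ratio of 1.08. The root libraries behind this mean disagreed, at 40.5, 54.6 and 55.9 CPM in replicates 1, 2 and 3.

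At the other end stood even genes whose replicates differed more than their organs. E3N88_24919 had the highest within-organ CV, 23.7%. It was at 63.0, 54.5 and 60.1 CPM in flower and 60.1, 54.4 and 56.4 in shoot apex, but at 33.5, 76.8 and 61.0 in root, 39.9, 48.7 and 69.2 in stem, and 82.0, 53.2 and 68.9 in leaf. Its organ means of 52.6 to 68.1 CPM met the rule, while its libraries spanned 2.45-fold. E3N88_37408 was at 57.4 CPM in root replicate 1 against 112 and 119 in replicates 2 and 3, and at 81.1, 139 and 110.3 in leaf. E3N88_35261 was at 39.7 CPM in leaf replicate 2 against 90.4 in leaf replicate 1. For E3N88_24919 and E3N88_37408 the level means came from averaging low and high libraries. For E3N88_35261 such averaging was chiefly in leaf, its lowest organ mean at 65.3 CPM. Its other organ means were 73.9 to 83.0 CPM.

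**Figure D2:**
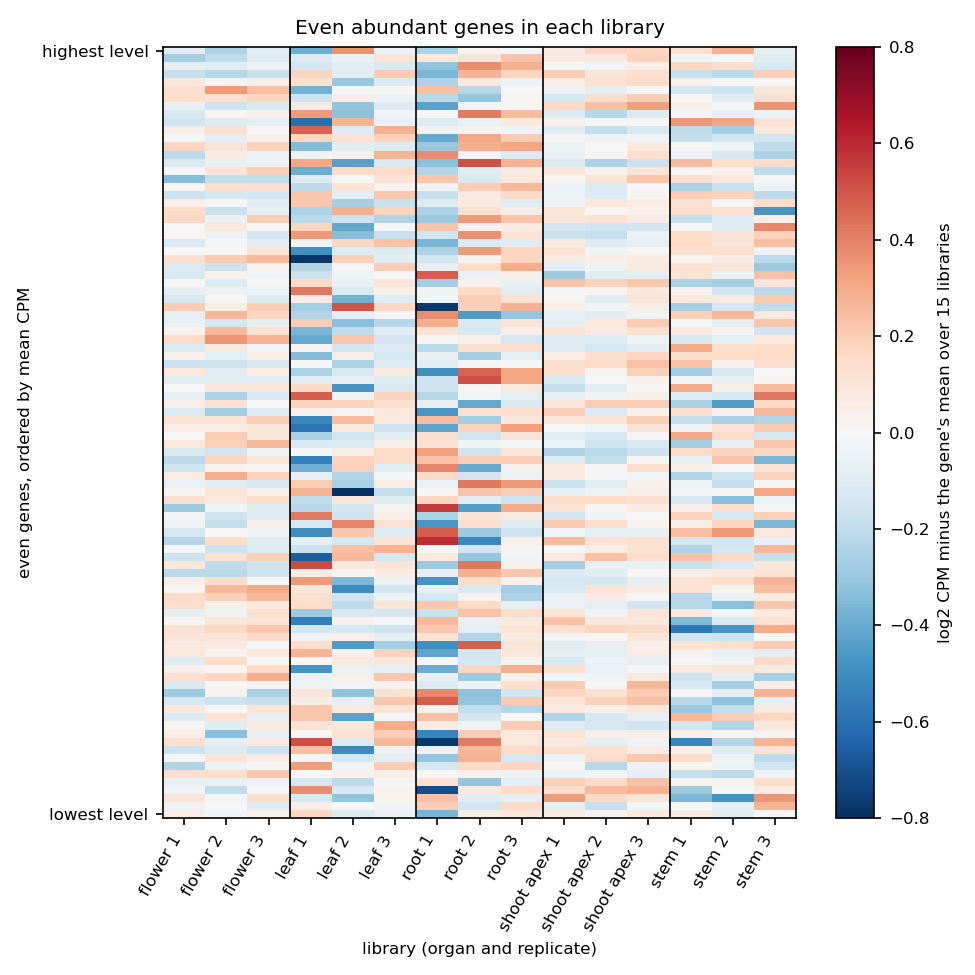
Rows are the 96 even genes ordered by mean CPM, columns are the 15 libraries, and colour is log2 CPM minus the gene's own mean (red above, blue below). Flower and shoot apex columns are pale, while leaf replicates 1 and 2 and root replicates 1 and 2 hold most of the strong colours, red and blue alike.

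Over all 96 genes, spread between replicates was small in flower and shoot apex and larger in leaf and root. The median CV of an even gene was 12.9% over the root libraries and 12.3% over those of leaf, against 8.52% for stem, 4.94% for flower and 4.40% for shoot apex. Counting error alone gives a median CV of 5.13% for root, 3.66% for leaf, 4.50% for stem, 3.24% for flower and 2.97% for shoot apex. As a share of the summed squared CV it came to 33.3% in shoot apex and 26.4% in flower, but to 4.99% in leaf and 8.28% in root. Counting error was thus a small part of the spread in leaf and root. All 96 genes had a CV under 20% in flower and in shoot apex, and so did 88 in stem, 68 in root and 71 in leaf. Many other genes of at least 50 CPM in every organ had a CV under 20% too. Their share was 92.0% in flower, 95.7% in shoot apex, 75.8% in stem, 64.9% in root and 53.1% in leaf.

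The even genes were also steadier between replicates than the 2718 other genes of at least 50 CPM in every organ. Pooled over the organs, as the root of the mean squared CV, the within-organ CV had a median of 11.8% against 15.7%, and of 26.9% over the 24675 tested genes with reads in every organ. The medians of the other abundant genes were 15.2% for root, 18.9% for leaf, 12.7% for stem, 8.76% for flower and 5.13% for shoot apex, each above that of the even genes. The rule did not use the spread within an organ directly, but noisy genes have noisy means and meet a limit on their ratio less often. These values are therefore a description, and no test was made.

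**Figure D3:**
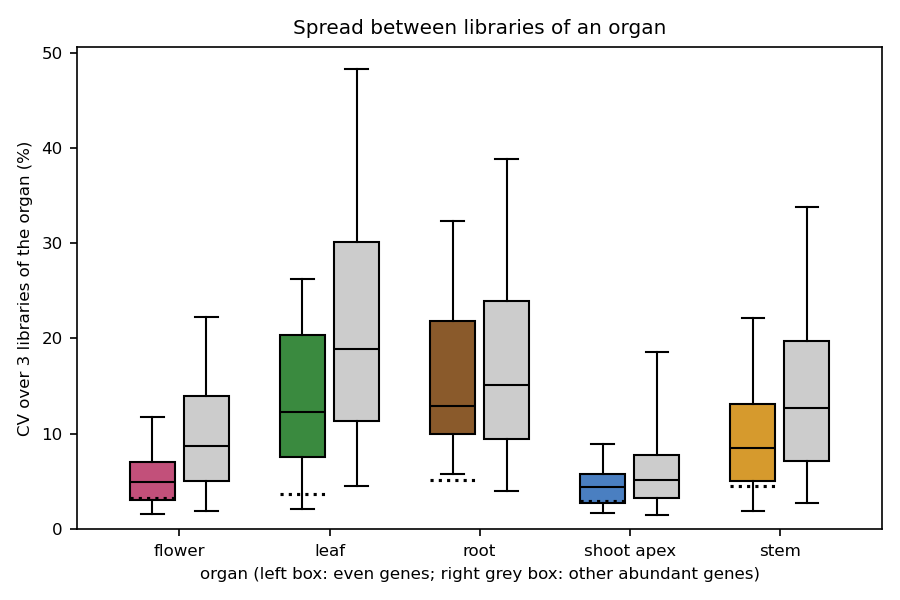
For each organ, the left box gives the CV over its 3 libraries of the 96 even genes and the grey box that of the 2718 other abundant genes; boxes span the quartiles with the median, whiskers the 5th to 95th percentile, and the dotted line is the median CV that counting error alone gives. The median of the even genes is 4.40% in shoot apex and 12.9% in root, and lies under that of the other genes in each organ.

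The extremes of the even genes fell mostly in a few libraries of leaf and root. The rule limits how far the organ means of these genes can differ, so this does not show that organs play no part. The lowest of the 15 values fell in root replicate 1 for 23 genes, leaf replicate 1 for 19, leaf replicate 2 for 16 and root replicate 2 for 10. The highest fell in root replicate 2 for 17 genes, root replicate 1 for 16 and leaf replicate 1 for 14. In root replicate 1, 53 of the 96 genes lay below both other root libraries and 34 above both. Of all tested genes, 34.4% lay below both and 48.1% above both there. An even gene differed from the mean of the other libraries of its organ by a median of 0.30 on the log2 scale in root replicate 1, 0.24 in leaf replicate 1, 0.22 in root replicate 2, 0.21 in leaf replicate 2 and 0.18 in stem replicate 3. Over all tested genes these medians were 0.51, 0.53, 0.42, 0.49 and 0.43. In the other 10 libraries they were at most 0.14 for the even genes and 0.28 over all tested genes.

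Differences between organ means made up 35.9% of the variance of log2 CPM of the 96 genes over the 15 libraries, against 88.3% over all tested genes. With 3 libraries per organ, replicate noise alone puts part of the variance between organ means. That part was not subtracted, so 35.9% is not the share due to organs. The first principal component of the 96 genes held 28.1% of their variance and ran from leaf replicate 1 and root replicate 2, at -1.95 and -1.84, to root replicate 1, at 2.21. Only 4.40% of the variance along it was between organs, against 99.3% for the first component of all tested genes. The rule removed differences between organs, and what remained was chiefly difference between libraries of an organ.

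The overall test among organs, edgeR's quasi-likelihood F test with Benjamini-Hochberg adjustment over all genes, called 89.6% of the 27055 genes, 24248, and 0 of the 96, with the threshold at an adjusted p of 0.05. The lowest edgeR adjusted p among the 96 was 0.0676, and 0 had an unadjusted p under 0.05, against 90.1% of all tested genes. The rule used the same contrast, so nothing is read from this count. It also does not show that the genes are the same in all organs. DESeq2's likelihood ratio test called 91.4% of all genes and 14 of the 96 at an adjusted p under 0.05. It used DESeq2's own scaling factors and not TMM, so the 2 programs differ in both scaling and test. Among these 14 were E3N88_03535 and E3N88_34299, at DESeq2 adjusted p-values of 0.00773 and 0.00263, whose edgeR values were 0.158 and 0.249. Without leaf replicate 1, root replicate 1 and stem replicate 3, edgeR called 39 of the 96, and 25811 of all genes tested, or 93.6%. These are the libraries farthest off in their own organ; leaf replicate 2, left in, lay farther off than stem replicate 3.

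What the data could resolve is given by the standard error. The difference between 2 organ means of an even gene had a median SE of 0.14 on the log2 scale, from the residual SD over all 15 libraries, and the limit of 1.3 is 0.38 on that scale. For 43 of the 96 genes the largest difference between organ means was under 2 such SE. That difference was the largest over all pairs of organs, so exceeding 2 SE does not by itself show that organs differ. The SE also pools the spread of all organs, although the median CV was 12.9% in root and 4.40% in shoot apex. It is therefore too large for pairs of steady organs and too small for pairs of noisy organs. The SE ran from 0.04 for E3N88_34299 to 0.30 for E3N88_24919.

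To see how evenness carried over, genes were picked by the same rule on 2 replicate numbers of every organ and then read in the 5 libraries of the number left out, scaled on their own. Picking without replicates 1, 2 and 3 gave 112, 86 and 101 genes. Of these, 60, 62 and 63 were among the 96, so the values that follow describe the picked genes and not the 96. In the left-out libraries, the highest of the 5 organs was a median of 1.66, 1.43 and 1.38 times the lowest, against 2.55, 2.33 and 2.17 for the other abundant genes. A single library is noisier than a mean, and the ratio stayed within 1.3 for 14 of 112, 24 of 86 and 34 of 101 picked genes, or 12.5%, 27.9% and 33.7%. For the other abundant genes these shares were 1.36%, 2.31% and 1.79%. Most of the picked genes were within 2-fold, at 76.8%, 94.2% and 94.1%, but 26, 5 and 6 of them were not. The left-out replicate 1 libraries, which include those of leaf and root named above, gave the poorest result.

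**Figure D4:**
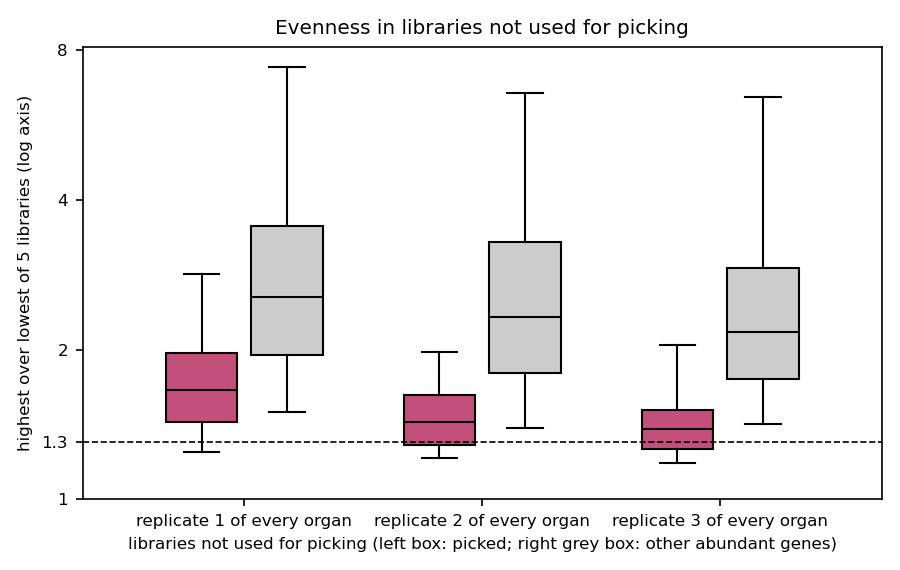
For each replicate number left out, boxes give the ratio of the highest to the lowest of its 5 libraries (log axis) for genes picked on the other libraries and, in grey, for the other abundant genes; whiskers are the 5th to 95th percentile and the dashed line is the limit of 1.3. The picked genes have medians of 1.66, 1.43 and 1.38, below the 2.55, 2.33 and 2.17 of the other genes.

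The list itself changed with the libraries used. Leaving out any 1 library gave 84 to 121 even genes, of which 68 to 93 were among the 96. A core of 27 genes met the rule in each of the 15 such sets, and 76 did in at least 12 of them. Of the genes described above, E3N88_15233, E3N88_34299, E3N88_17292, E3N88_26784 and E3N88_03535 belonged to the core. E3N88_36034, with the most level means, met the rule in only 4 of the 15 sets; its lowest organ mean lay at the limit of 50 CPM. Of the 3 genes with the noisiest replicates, E3N88_24919 met it in 10 sets, E3N88_37408 in 8 and E3N88_35261 in 13.

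Evenness was relative to the scaling. TMM factors were 1.12 on average in flower and 1.17 in shoot apex but 0.856 in root and 0.906 in stem, and the summed reads of the 96 genes followed these factors. They were 0.805 ± 0.0352% of all counts in root (SD, n = 3), 0.844 ± 0.117% in stem, 0.902 ± 0.0667% in leaf, 1.03 ± 0.0414% in flower and 1.10 ± 0.0112% in shoot apex. With plain library totals in place of TMM, only 15 of the 96 stayed within 1.3 and their median ratio was 1.46. Under that scaling 60 of them were highest in shoot apex and 34 in flower, and 52 were lowest in root and 30 in stem. The rule then gave 108 genes, of which the same 15 were shared. With relative log expression (RLE) factors it gave 95 genes, 72 of them shared. No spike-in counts were analysed here, so which scaling reflects RNA per cell was not tested.

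The ratio of 2 genes within a library does not depend on scaling. Over the 4560 pairs of even genes, the SD of the log2 ratio over the 15 libraries had a median of 0.26 and ran from 0.08 to 0.57. The steadiest pair, named after its values were seen, was E3N88_14920 and E3N88_20503, whose ratio of counts stayed between 0.491 and 0.603. The mean of these SDs for one gene against all other even genes is the stability measure M that is used to rank reference genes. It had a median of 0.25 over the even genes, with a range of 0.21 to 0.37, and of 0.50 for the other abundant genes against the 96. The lowest M was that of E3N88_15233, followed by E3N88_36034. Genes that are each close to level must have steady ratios, so low values of M follow in part from the rule.

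Taken alone as a reference, even genes deviated in single libraries. Each was compared with the TMM-scaled total of the library. The library farthest off deviated by a median of 0.40 on the log2 scale over the 96 genes, with a range of 0.16 for E3N88_15233 to 0.91. For 21 genes it exceeded 0.5, and for 0 it exceeded 1. The highest and lowest organ means differed by a median of 0.31 and at most 0.42 on this scale. Against TMM scaling, this is the shift a single reference would pass to every fold between those organs. The rule held the ratio of mean CPM to 1.3 under the same scaling, which is 0.38 on the log2 scale. The shifts here use means of log2 counts, so they can pass that limit somewhat. Their small size still describes the choice in large part. With plain library totals the ratio of organ means reached 1.78 among the 96.

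Means over 5 or more of the steadiest even genes came closer than the single steadiest gene, E3N88_15233, which deviated by at most 0.16 and shifted organs by at most 0.14. The mean of the 3 genes with the lowest SD deviated by at most 0.14 but shifted organs by 0.17. The geometric mean of the 5 genes with the lowest SD deviated by at most 0.12 on the log2 scale, in stem replicate 2, and shifted organs by at most 0.09. With the 10 lowest these values were 0.09 and 0.06, and with all 96 they were 0.07 and 0.05. The 5 genes with the highest level did less well, with a deviation of 0.22 in root replicate 1 and a shift of 0.21. These sets were chosen on the same libraries. When the 5 genes of lowest SD were picked without replicate 1, 2 or 3 and read in the libraries left out, their own SD of log2 CPM had a median of 0.26, 0.14 and 0.11, against 0.29, 0.20 and 0.19 for all picked genes and 0.55, 0.50 and 0.45 for the other abundant genes. The SD of their geometric mean was 0.01, 0.06 and 0.07. Each of these is an SD over 5 libraries and is itself imprecise.

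**Figure D5:**
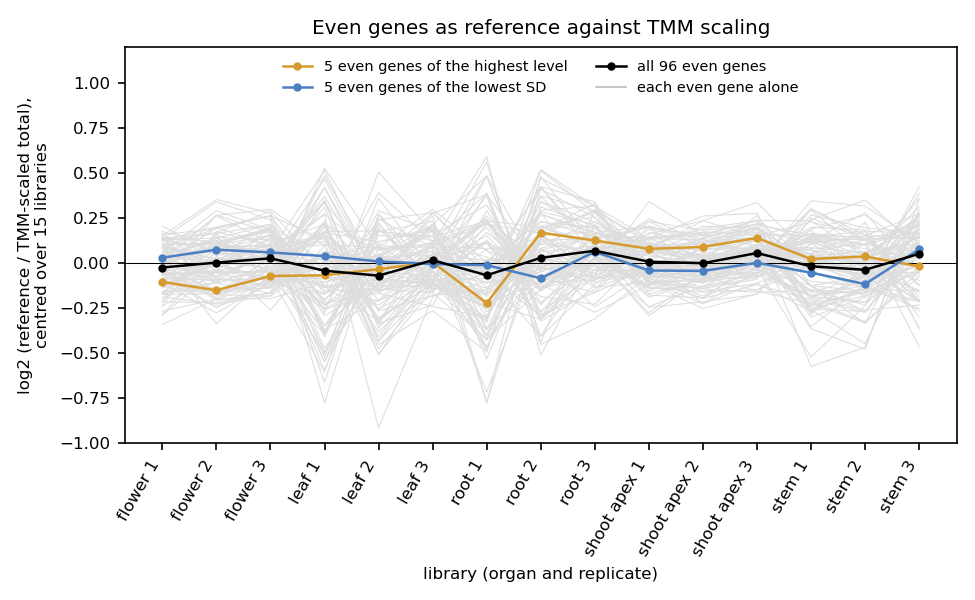
Lines give, in each of the 15 libraries, the log2 ratio of a reference to the TMM-scaled total, centred over libraries: grey for each even gene alone, colours for the geometric mean of 5 genes, and black for all 96. Single genes spread to 0.91 in one library, the 5 of the lowest SD stay within 0.12, and all 96 within 0.07.

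With the 96 genes in place of TMM, the F test across all genes changed little. Scaling by the median ratio over the 96 genes moved no library by more than 0.08 on the log2 scale, and edgeR called 24187 genes, of which 24063 were among the 24248 called with TMM. The 96 genes were chosen to be even under TMM, so this closeness is built into the choice.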

How the data were processed

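The table deposited by the authors holds whole-number read counts, not normalized, for 41487 gene IDs in 15 libraries. HISAT2 is named in the submitters' processing notes. Its version, the counting program, the build, the annotation and the settings for strand and multimapping, not given in the sources used here, can affect the values, and counts of near-identical, overlapping or antisense genes are uncertain. Totals were 3777165 to 12817396 counts per library, and an even gene had 139 to 5044 reads in a library, a counting CV of at most 8.48%. Such values cover counting error only.

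Counts were filtered with filterByExpr by organ and scaled by TMM in edgeR 4.0.16 (R 4.3.3). The F test used glmQLFit and glmQLFTest with 1 term per organ over all 15 libraries, which share 1 estimate of the spread. It was also run on simulated counts in which a small set of genes changed in stem alone. Most genes differ among organs in the real data, so that run does not show how the test behaves here. DESeq2 1.42.0, other scalings, no filter, other limits, a replicate block and left-out libraries were alternatives. Reference sets and pairs used log2 of counts plus 0.5. The even genes, the limits and the tests were chosen with earlier results of these data known.

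Genes were named by rule: the 5 of highest mean CPM, the 5 of lowest SD of log2 CPM, the 3 of highest within-organ CV, and 2 on each side of both limits. No 2 libraries of an organ agreed within counting noise.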

Additional observations from a re-analysis of the deposited data

How the results depend on the processing

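The count of 96 even genes moved with the limits themselves, to 25 at a ratio of at most 1.2, 383 at 1.5, 186 at a level of at least 20 CPM and 24 at 100 CPM. It was 84 to 121 without any 1 library, 87 with organ medians, 93 without the low-count filter and 128 without leaf replicate 1, root replicate 1 and stem replicate 3, of which 60 were among the 96. The count of even genes called among organs was 0 of 96 with TMM and edgeR, beside 89.6% of all tested genes. It was 1 with RLE factors, beside 24272 of all tested genes, and 45 with plain library totals, beside 24294. With DESeq2 it was 14, beside 91.4% of all genes, and without those 3 libraries 39, beside 93.6%. Leaving out 1 library gave 0 to 7 even genes called, beside 23502 to 25120 of all tested genes. There were 7 without root replicate 1, 5 without leaf replicate 2 and 4 without leaf replicate 1. There were 3 without root replicate 2 or stem replicate 3, and 1 without flower replicate 2 or shoot apex replicate 1. The cause was not tested. The median within-organ CV of 11.8% fell to 7.25% without the 3 libraries and was 9.72% to 13.2% without any 1. Counts over all tested genes stayed between 23502 and 25847. Of 400 ratios of named genes under alternatives, 11 moved by more than the replicate spread, all of them with plain library totals. That spread was taken from single libraries, while each ratio is one of organ means. It is thus a wide limit, and widest for the noisiest genes. The ratio of E3N88_02170 went from 1.29979 to 1.46617 without root replicate 2, outside the rule for even genes, and was not counted as moved. The count of 11 therefore does not show that the other ratios are stable. With the replicate block 0 even genes and 23602 of all genes were called. The correlation of deviations over genes was above 0.1 in 3 of 30 pairs of same-numbered libraries and in 15 of 60 pairs with different numbers. The labels do not say that a shared number marks a shared plant or batch, so these values cannot decide whether such libraries deviate together. Depth limits the lowest genes, at 139 reads in the shallowest library.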
